A study of Mus musculus with 4 samples.

Results

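The replication-dependent histone genes supply the histones that package new DNA, and their messages were measured here in mouse embryonic stem (ES) cells after knockdown of Atad2, an ATPase with a bromodomain that binds acetylated chromatin. Members were all genes whose GENCODE vM21 symbol (GRCm38) starts with Hist1h, Hist2h, Hist3h or Hist4h, which gave 70 genes, of which 67 are coding and 3 are pseudogenes. They comprise 6 H1, 20 H2A, 19 H2B, 12 H3 and 13 H4 genes, with 56 in the Hist1 cluster on chromosome 13, 10 in the Hist2 cluster on chromosome 3, 3 in the Hist3 cluster on chromosome 11 and Hist4h4 alone on chromosome 6. Of the 20407 genes that could be named in the tables, 64 were members with a row of their own, and 28 of the 9834 genes tested were members.

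The study sequenced RNA from 46C ES cells, a mouse line, in 4 libraries. The si-ctrl 1 and si-ctrl 2 libraries came from cells given a scrambled siRNA, and si-Atad2 1 and si-Atad2 2 from cells given an siRNA against Atad2. All 4 libraries, controls included, carried an Atad2 TAP-tag knock-in, a tag placed at the Atad2 gene itself, and were grown on gelatin with LIF, which keeps ES cells undifferentiated. Each si-Atad2 library was set against the si-ctrl library of the same number in a Cuffdiff run of its own, called pair 1 and pair 2 here. The tagged cells were made from 46C cells of a 129SV background and selected as neomycin-resistant clones. The labels speak of replicates, the paper also of RNA sequenced again, so the p-values may measure technical spread only. The paper names 2 siRNAs against Atad2, and the sources used here tie neither to a library. Whether both si-Atad2 libraries had the same siRNA is therefore not known, and a difference between the pairs cannot be told apart from a difference between siRNAs.

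Replication-dependent histone genes are transcribed mainly in S phase, when new DNA has to be packaged into nucleosomes. Their messages have no introns and, unlike nearly all other messages, end after a short stem-loop rather than in a poly(A) tail. The stem-loop binding protein Slbp holds this element and directs its cleavage, export, translation and decay. Copies of H2A, H2B, H3 and H4 form the nucleosome core, and H1 binds the linker DNA between nucleosomes. Replacement histones such as H3f3a and H2afz are also made outside S phase, from separate genes with ordinary poly(A) messages.

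The stem-loops are shown because the deposited rows differ in whether they reach this element. On the sense strand of GENCODE vM21 transcripts the letters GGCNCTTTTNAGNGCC occurred in 42 of the 70 members and in 5 of 55271 other genes (0.009%), 1 of them H2afx, a replacement H2A with a message of both kinds. Some member transcripts, such as that of Hist1h2bl, span the coding sequence alone, so absence of the letters does not show absence of the element. Examples from each histone type follow 5′ to 3′, written as DNA, with the stem-loop in capitals. They are, for each type, the member with the highest level whose row passes the element, and Hist1h4d, whose row stops short of it.
Hist1h1c, chr13:23739512-23739527, plus strand: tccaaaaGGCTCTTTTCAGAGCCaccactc
Hist1h2ae, chr13:23570668-23570683, minus strand: aaacaaaGGCTCTTTTCAGAGCCattcact
Hist3h2ba, chr11:58949349-58949364, plus strand: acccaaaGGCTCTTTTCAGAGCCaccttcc
Hist1h3c, chr13:23745047-23745062, minus strand: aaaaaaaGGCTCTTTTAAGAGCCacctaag
Hist1h4i, chr13:22040966-22040981, minus strand: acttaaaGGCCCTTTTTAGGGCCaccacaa
Hist1h4d, chr13:23581950-23581965, plus strand: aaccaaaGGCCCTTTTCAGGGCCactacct
The coordinates are those of the 16 capital bases in GRCm38. The form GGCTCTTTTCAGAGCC was the commonest and stood in 26 members, none of them H4. The 9 H4 members with the motif carried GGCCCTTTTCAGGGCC (7 members) or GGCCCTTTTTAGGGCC (2 members), and neither form occurred in another type.

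Promoters were searched on both strands in RefSeq windows of 300 bases around the start (GRCm38.p6), for 62 members that matched. The octamer ATTTGCAT, the Oct-1 element known from H2B promoters, was found in 21% of them and in 1.74% of 32851 promoters. It stood in 38.9% of H2A and 37.5% of H2B members and in no H1, H3 or H4 member. Windows of neighbouring H2A and H2B genes on opposite strands can overlap, as for Hist1h2ah and Hist1h2bk. The same letters can then count for both types, so these shares are not independent. The letters CCAAT stood in 85.5% of members against 37.4% of all promoters, in every H1, H2A, H2B and H3 member matched and in 25% of H4 members. TATAAA was found in 56.5% of members against 13.6%. The promoters of the 2 members that passed the test below are shown 5′ to 3′ on the plus strand, with CCAAT and TATAAA, or their complements ATTGG and TTTATA, in capitals.
Hist3h2ba, chr11:58948661-58948960: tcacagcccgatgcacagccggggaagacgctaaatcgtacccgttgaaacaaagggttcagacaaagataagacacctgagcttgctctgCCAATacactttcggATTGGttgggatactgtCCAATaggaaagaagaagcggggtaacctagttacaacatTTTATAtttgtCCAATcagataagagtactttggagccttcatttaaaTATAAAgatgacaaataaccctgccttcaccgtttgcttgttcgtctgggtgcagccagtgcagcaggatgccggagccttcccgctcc
Hist1h1c, chr13:23738557-23738856: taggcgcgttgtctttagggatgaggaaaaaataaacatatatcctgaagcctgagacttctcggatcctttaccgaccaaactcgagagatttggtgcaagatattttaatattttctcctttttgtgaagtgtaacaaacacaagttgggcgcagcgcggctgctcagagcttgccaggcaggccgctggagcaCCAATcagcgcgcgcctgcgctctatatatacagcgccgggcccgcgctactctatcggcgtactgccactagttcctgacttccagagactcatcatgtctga
The Hist1h1c window held CCAAT and not TATAAA, and neither window held the octamer.

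Levels were low: the 64 members with a row had a median of 0.908 FPKM. They are given in FPKM, fragments per kilobase of a row after scaling for library depth, a unit that allows comparison between genes of different length. Cuffdiff scaled each pair separately, so levels of different pairs stand side by side and ratios were taken within a pair. Summed over all members, the level was 93.1 in si-ctrl 1, 110.4 in si-Atad2 1, 89.9 in si-ctrl 2 and 94.4 in si-Atad2 2. These sums were 0.0292%, 0.0354%, 0.0283% and 0.0304% of the FPKM of all rows of at least 200 bases. The labels name a TruSeq RNA protocol started from total RNA and do not say how messages were selected, which bears on messages without a poly(A) tail. The replacement histone list, by contrast, summed to between 866 and 986 FPKM, and its sum was 8.93 to 9.72 times that of the clusters.

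Of the 64 members with a row of their own, 28 had a mean of at least 1 FPKM and 36 fell below it, 12 of them under 0.1 FPKM. The members below were 3 H1, 12 H2A, 9 H2B, 6 H3 and 6 H4 genes, and Hist1h2ap was at 0 in every library. Among the 28 tested, 26 passed the minimum in each group alone, Hist1h2al passed through the si-Atad2 mean only and Hist1h4j through the si-ctrl mean only. The other 6 members had no value of their own. Hist1h2ad and Hist1h3d shared 1 row with 0.147 to 0.324 FPKM, Hist2h2aa1 and Hist2h3c1 shared another with 0.757 to 1.02 FPKM, the locus of Hist3h2a was covered by 5 rows merged with Trim17, and Hist1h2aj had no row.

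**Figure D1:**
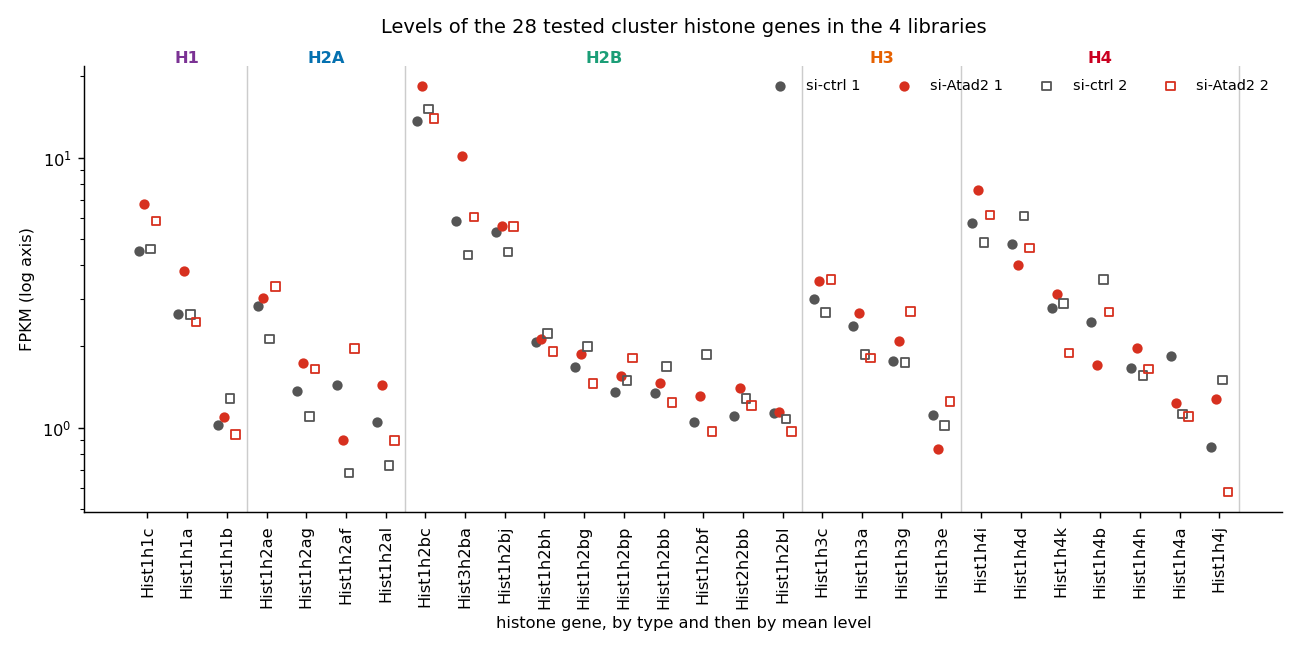
Level in FPKM (log axis) of the 28 tested cluster histone genes in each of the 4 libraries, ordered by histone type and then by mean level. Filled circles are pair 1 and open squares pair 2, with si-ctrl in grey and si-Atad2 in red; Hist3h2ba and Hist1h1c have both red points above both grey points, and most other genes have overlapping groups.

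The targeted gene fell in both pairs. Atad2 was at 34.1 FPKM in si-ctrl 1 and 10.1 in si-Atad2 1, and at 36.0 in si-ctrl 2 and 13.0 in si-Atad2 2. Its mean log2 ratio was -1.53 ± 0.08 (moderated SE, 2 pairs, adjusted p = 4.44e-06, limma), with -1.66 in pair 1 and -1.40 in pair 2. The moderated SE of limma borrows the spread of other genes, so it is not the spread of the 2 pairs alone. The ES cell markers, among them Pou5f1 and Nanog, summed to between 3293 and 3509 FPKM and 0 of 9 passed the test (4 were lower at an unadjusted p under 0.05, limma). Markers of other cell types were low, except Thy1 and Ddx4, with means of 6.31 and 8.28 FPKM. Fibroblast or feeder markers summed to 7.16 to 8.49 FPKM, mostly Thy1, with Lum at 0 in every library. Primitive endoderm markers summed to 3.01 to 3.42 FPKM, and mesoderm and ectoderm markers to 6.35 to 7.08. Male germ cell markers summed to 7.73 to 8.70 FPKM, nearly all of it Ddx4. Of these markers 0 passed the test (limma), and Pax6 alone had an unadjusted p under 0.05.

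Ratios are log2((si-Atad2 + 1)/(si-ctrl + 1)) within a pair, on which scale the change of low genes is understated, and they were tested with limma over all 9834 genes. Of all genes tested, 210 passed an adjusted p of 0.05 (2.14%), 165 of them higher (1.68%) and 45 lower (0.458%) after knockdown. Of the 28 members tested, 2 were called higher, Hist3h2ba and Hist1h1c, and 0 lower. At an unadjusted p under 0.05, 7 members were higher, against a background of 8.46% of genes, and 2 were lower, against 7.79%. The median ratio of the 28 members was 0.13 in pair 1 and -0.02 in pair 2, while that of all genes tested was 0.00 in pair 1 and -0.02 in pair 2.

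Direction was shared by both pairs in 14 of the 28 members. They were higher in both pairs in 11 cases (39.3%, against 28.8% of all genes) and lower in both in 3 cases (10.7%, against 34.0%). All 3 that were lower encode H4. The 11 include the pseudogene Hist1h2al, which reached the minimum level through its si-Atad2 mean only. Both si-Atad2 levels lay above both si-ctrl levels in 9 members (32.1%, against 22.6%) and below them in 1, Hist1h4d (3.57%, against 26.8%). Members share sequence and regulation, so these counts are not counts of independent genes. The pairs differed more for members than for most genes: the median absolute difference between the 2 ratios was 0.26 over the 28 members and 0.11 over the 6184 genes in the same range of levels. Those genes were matched on FPKM and not on fragments. Member rows had a median length of 470.5 bases, against 2287 for all rows. A shorter row holds fewer fragments at the same FPKM, and its part in this difference was not tested.

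**Figure D2:**
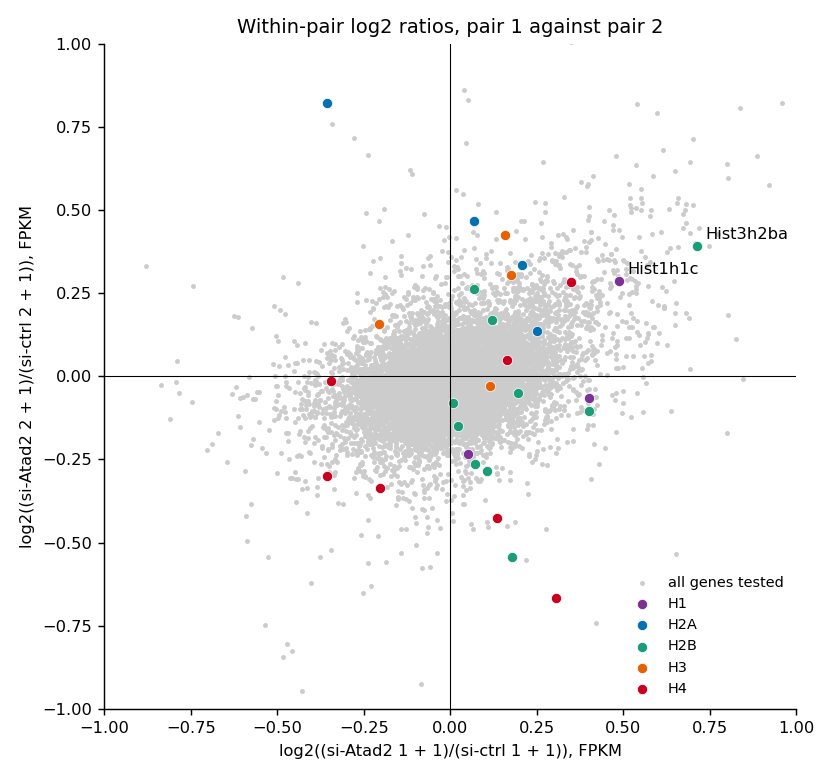
Within-pair log2 ratios, with pair 1 on the horizontal and pair 2 on the vertical axis, for all genes tested (grey) and for the tested cluster histone genes, coloured by type; 15 genes lie outside the axes. Hist3h2ba and Hist1h1c lie at the upper right of the members, 3 H4 genes lie at the lower left, and many members lie far from the diagonal.

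H1 histones bind linker DNA and compact chromatin, and Hist1h1c rose. It encodes H1.2 and is at chr13:23738808-23740367, and its level was 4.52 FPKM in si-ctrl 1, 6.74 in si-Atad2 1, 4.59 in si-ctrl 2 and 5.82 in si-Atad2 2. The controls were close to each other and both si-Atad2 levels were above them. The mean log2 ratio was 0.39 ± 0.08 (moderated SE, 2 pairs, adjusted p = 0.0369, limma), with 0.49 in pair 1 and 0.29 in pair 2. Deposited 95% intervals were apart and higher for 3 of the 28 tested members in pair 1, against 14.8% of rows at 1 FPKM or more. In pair 2 this held for 1 of the 28, against 8.89% of rows. Members thus had the smaller share in each pair, and each interval belongs to a single library. Hist1h1c was the member counted in both pairs. Its intervals were 4.01 to 5.03 against 6.10 to 7.37 FPKM in pair 1 and 4.05 to 5.13 against 5.22 to 6.42 FPKM in pair 2. Its row, 1561 bases, passes the stem-loop by 840 bases. The Hist1h1c transcript shared 8.54% of its 50-base windows with transcripts of other genes, and the authors' intervals correspond to 286 to 449 fragments per library.

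Hist1h1a, which encodes H1.1, was at 2.64 FPKM in si-ctrl 1, 3.81 in si-Atad2 1, 2.63 in si-ctrl 2 and 2.47 in si-Atad2 2. Only si-Atad2 1 stood apart, and the ratios were 0.40 and -0.07 (adjusted p = 0.49, limma). Hist1h1b, which encodes H1.5, was at 1.02, 1.09, 1.29 and 0.943 FPKM in the same order, with overlapping groups. The testis gene Hist1h1t, made in spermatocytes, was at 0.147 to 0.381 FPKM. The summed H1 level was 9.42, 13.0, 9.55 and 10.5 FPKM in the same order, a mean log2 ratio of 0.27 ± 0.21 (SD, n = 2 pairs), and 51.1% of it was Hist1h1c.

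H2B genes had the highest summed level of the 5 types, and the other called member is one of them. Hist3h2ba, at chr11:58948920-58949533, encodes an H2B outside the large cluster and made 99.4% of the Hist3 sum. It was at 5.83 FPKM in si-ctrl 1, 10.2 in si-Atad2 1, 4.36 in si-ctrl 2 and 6.04 in si-Atad2 2. Both si-Atad2 levels exceeded both controls, si-Atad2 2 only just above si-ctrl 1. The mean log2 ratio was 0.55 ± 0.09 (moderated SE, 2 pairs, adjusted p = 0.00848, limma), with 0.71 in pair 1 and 0.39 in pair 2. Its intervals were apart in pair 1, with 4.82 to 6.83 against 8.82 to 11.5 FPKM, and overlapped in pair 2, with 3.44 to 5.29 against 4.98 to 7.10 FPKM.

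Both calls were lost without the replicate block (adjusted p = 0.22 for Hist3h2ba and 0.0609 for Hist1h1c, limma), with the trend on GC content removed (0.119 and 0.153), with no minimum level (0.479 and 0.48) and with rows of all lengths (0.137 and 0.199), and that of Hist1h1c also by eBayes without a trend (0.0525). With the GC trend removed the ratios themselves were 0.58 for Hist3h2ba and 0.41 for Hist1h1c, no smaller than before, and calls over all genes went from 210 to 15. Across genes, GC content had a Spearman correlation of -0.29 with the pair 1 ratio, 0.088 with the pair 2 ratio and -0.55 with the ratio of the controls.

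**Figure D3:**
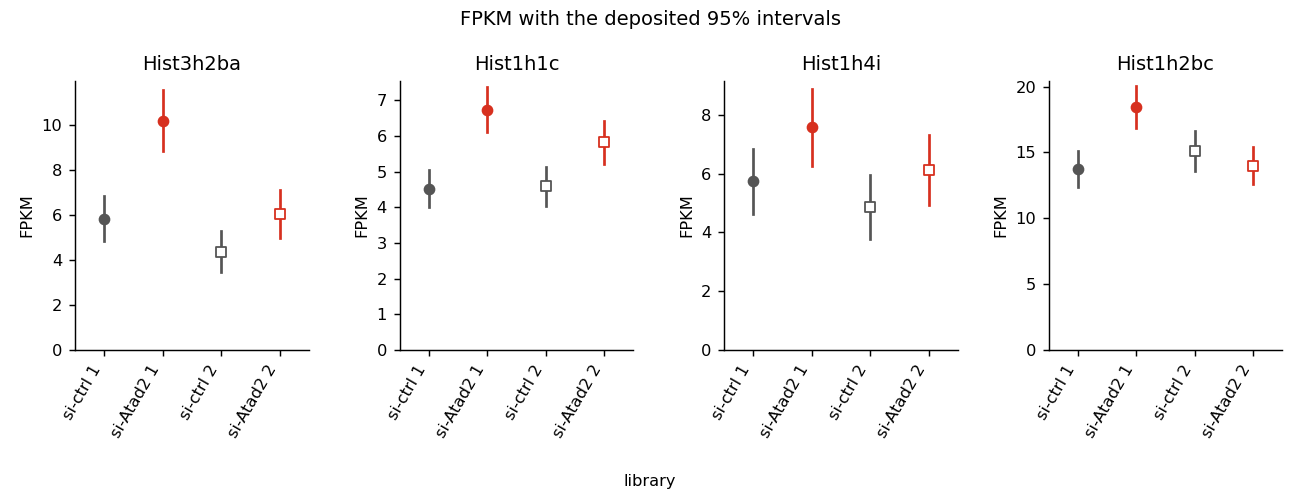
FPKM of Hist3h2ba, Hist1h1c, Hist1h4i and Hist1h2bc in each library, with vertical lines for the deposited 95% intervals. The intervals of the pair were apart in pair 1 and pair 2 for Hist1h1c, in pair 1 alone for Hist3h2ba and Hist1h2bc, and in neither for Hist1h4i.

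Hist1h2bc was the highest member of all, at 13.7 FPKM in si-ctrl 1, 18.4 in si-Atad2 1, 15.1 in si-ctrl 2 and 14.0 in si-Atad2 2. Its level was highest in si-Atad2 1, and in pair 2 the order of the groups was reversed, with ratios of 0.40 and -0.10 (adjusted p = 0.517, limma). Hist1h2bj was at 5.30, 5.61, 4.47 and 5.56 FPKM in the same order, and both si-Atad2 levels lay above both controls by less than the difference between the controls. The 7 other H2B members tested had mean levels between 1.08 and 2.09 FPKM, 0 passed, and 6 of the 7 were higher in pair 1 and lower in pair 2, all but Hist1h2bp, which was higher in both. The testis H2B gene Hist1h2ba was at 0.421, 1.00, 0.505 and 0.568 FPKM. The H2B sum was 38.1, 49.9, 39.0 and 38.7 FPKM, with a log2 ratio of 0.38 in pair 1 and -0.01 in pair 2.

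H2A genes had low levels that differed between libraries of 1 condition. Hist1h2ae was the highest, at 2.83 FPKM in si-ctrl 1, 3.01 in si-Atad2 1, 2.13 in si-ctrl 2 and 3.34 in si-Atad2 2. Both si-Atad2 levels were above both controls, with ratios of 0.07 and 0.47 (adjusted p = 0.22, limma). Hist1h2ag was at 1.37, 1.73, 1.10 and 1.65 FPKM in the same order, again with both si-Atad2 levels higher and with ratios of 0.21 and 0.34 (adjusted p = 0.163, limma). Hist1h2af moved in opposite directions, at 1.44, 0.904, 0.680 and 1.97 FPKM. The testis gene Hist1h2aa was at 0.0843 to 0.179 FPKM. The H2A sum was 9.49, 9.95, 6.31 and 11.1 FPKM, with log2 ratios of 0.06 and 0.73, and si-ctrl 2 was the low library: its sum was lower than that of si-ctrl 1 by a log2 ratio of -0.52, more than the pair 1 ratio. Transcripts of H2A members shared a median of 73.2% of their 50-base windows with other genes, so the split of reads among copies is uncertain.

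**Figure D4:**
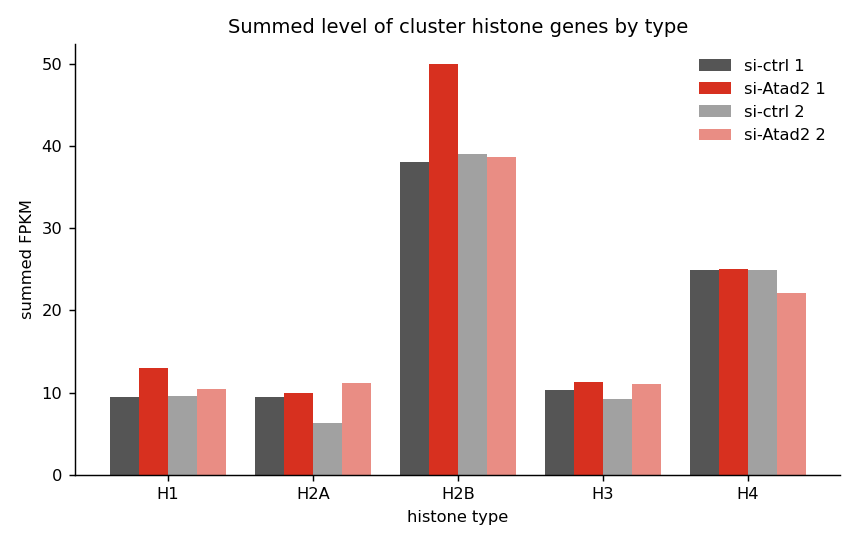
Summed FPKM of the cluster histone genes of each type in the 4 libraries, with si-ctrl in grey, si-Atad2 in red and pair 2 in the lighter shade. H2B was highest in si-Atad2 1 at 49.9 FPKM, H2A was lowest in si-ctrl 2 at 6.31 FPKM, and H4 lay between 22.1 and 25.0 FPKM.

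H3 carries the tail residues that most histone marks sit on. Hist1h3c was at 2.99 FPKM in si-ctrl 1, 3.51 in si-Atad2 1, 2.68 in si-ctrl 2 and 3.54 in si-Atad2 2. The groups did not overlap, and the ratios were 0.18 and 0.30 (adjusted p = 0.182, limma). Hist1h3g was at 1.77, 2.09, 1.75 and 2.69 FPKM in the same order, without overlap, with ratios of 0.16 and 0.43 (adjusted p = 0.152, limma). Hist1h3a was at 2.38, 2.66, 1.86 and 1.81 FPKM, with overlapping groups. The H3 sum was 10.3, 11.3, 9.17 and 11.0 FPKM, and its ratios of 0.12 and 0.24 had a mean of 0.18 ± 0.08 (SD, n = 2 pairs).

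H4 was the type with members on both sides. Hist1h4i was at 5.73 FPKM in si-ctrl 1, 7.57 in si-Atad2 1, 4.86 in si-ctrl 2 and 6.13 in si-Atad2 2. Both si-Atad2 levels were above both controls, and the ratios of 0.35 and 0.29 missed the threshold (adjusted p = 0.0619, limma). It passed in 2 of 10 other settings, with a pseudocount of 5 FPKM and after rescaling to TPM. Hist1h4d was at 4.78, 4.02, 6.09 and 4.62 FPKM in the same order, the si-Atad2 levels below both controls, with ratios of -0.20 and -0.34 (adjusted p = 0.12, limma).

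Hist1h4b was at 2.46 FPKM in si-ctrl 1, 1.71 in si-Atad2 1, 3.54 in si-ctrl 2 and 2.69 in si-Atad2 2. It was lower within each pair by a ratio of -0.36 and -0.30 (adjusted p = 0.0763, limma), but its controls differed by more, with a log2 ratio of 0.39. Hist1h4a was at 1.85, 1.24, 1.12 and 1.10 FPKM, with ratios of -0.35 and -0.01, and its controls differed by a log2 ratio of -0.42. Hist1h4k was at 2.77, 3.14, 2.88 and 1.89 FPKM, with opposite directions. The H4 sum was 24.9, 25.0, 24.9 and 22.1 FPKM, a mean log2 ratio of -0.08 ± 0.12 (SD, n = 2 pairs).

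By cluster, the Hist1 sum was 83.2 FPKM in si-ctrl 1, 95.5 in si-Atad2 1, 81.7 in si-ctrl 2 and 84.1 in si-Atad2 2, with log2 ratios of 0.20 and 0.04. The Hist2 sum was 3.94, 4.67, 3.75 and 4.07 FPKM in the same order, with ratios of 0.20 and 0.10. Hist4h4, an H4 gene far from the clusters, stayed between 0.0709 and 0.111 FPKM. Sums of Hist1 and Hist2 were thus highest in si-Atad2 1, and within pair 2 the groups differed by less than in pair 1.

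Among members under the minimum, the H2A gene Hist1h2ab was at 0.704 FPKM in si-ctrl 1, 1.19 in si-Atad2 1, 0.386 in si-ctrl 2 and 1.20 in si-Atad2 2. Both si-Atad2 levels exceeded both controls, and it was called higher once levels were rescaled to TPM, under which it passes the minimum. The H4 gene Hist2h4 was at 0.586, 0.361, 0.0542 and 0.625 FPKM, so its controls differed by more than the groups. Hist1h1e, which encodes H1.4, was at 0.413, 0.475, 0.450 and 0.586 FPKM, with both si-Atad2 levels higher, from a row that overlaps Hist1h2be.

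Copies of nearly the same sequence limit what a single row can say. Windows of 50 bases were taken from the GENCODE transcript of each member nearest in length to its longest row. Some of these transcripts run beyond the row, so the share of the row itself can differ and was not measured. A median of 48.2% of the windows was shared with transcripts of other genes. It was 1.13% for H1, 73.2% for H2A, 43.8% for H2B, 62.0% for H3 and 39.5% for H4. More than 50% of the windows were shared in 29 of 64 members, and no window was shared in 5. H1 genes had the lowest share of the 5 types.

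The rows of members differed in where they end, and the ratios are given by that class. This split was chosen after the values were seen and was not tested. Rows made of the coding sequence alone, which end before any stem-loop, were 12 of the 28 tested. Of these, 1 was higher in both pairs, Hist1h2bj, 3 were lower in both, and the median ratio was -0.12. For some, such as Hist1h4a and Hist1h4b, the transcript searched held no stem-loop letters. Rows that run past the stem-loop were 9; 7 were higher in both pairs, 0 were lower in both, and their median ratio was 0.27. The other 7 rows, which fell in neither class, held 3 that were higher in both pairs (Hist1h3g, Hist1h2al and Hist1h2bp) and 0 that were lower in both. Of these, Hist1h2al reached the minimum level through its si-Atad2 mean only. The 3 lower H4 genes all belong to the first class and Hist1h4i, Hist1h1c and Hist3h2ba to the second. With no minimum level the same classes held 28 and 18 members, with 3 higher and 6 lower in both pairs among the first and 8 higher and 1 lower among the second, and medians of -0.03 and 0.06.

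The classes also differed in histone type, row length and other measures. The H4 genes tested were Hist1h4a, Hist1h4b, Hist1h4d, Hist1h4j and Hist1h4k in the first class and Hist1h4h and Hist1h4i in the second. Tested rows ran from 312 to 672 bases in the first class and from 473 to 1561 bases in the second. Among members tested, rows of the coding sequence alone had a median of 1.31 FPKM and rows past the stem-loop 2.83 FPKM. GENCODE transcripts of the first class had medians of 57.8% GC and 57.0% of windows shared with other genes. Those of the second class had 56.0% and 45.8%. GC and sharing were taken from transcripts, which can run beyond a row of coding sequence alone, and were not measured on the rows. With the trend on GC removed the medians of the classes were -0.12 and 0.27. What reads past the stem-loop stem from, and their part in the difference, was not tested.

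**Figure D5:**
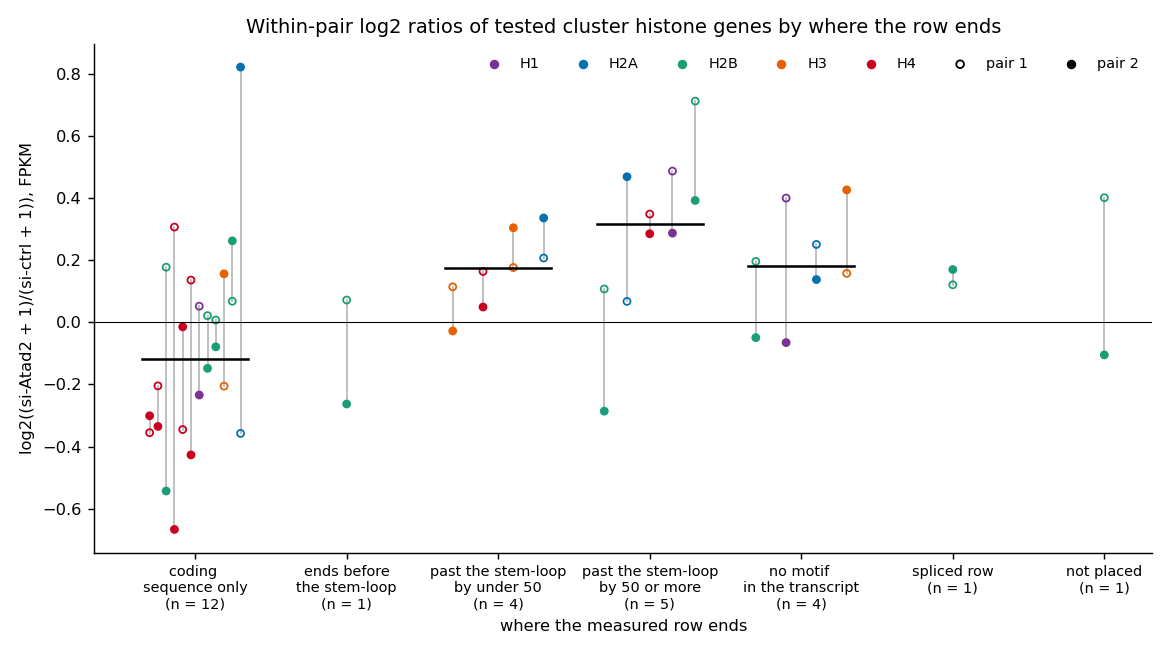
Log2 ratio in pair 1 (open) and pair 2 (filled) for each tested cluster histone gene, joined by a grey line and grouped by where its measured row ends; black bars are medians of the mean ratio. The median was -0.12 for the 12 rows of coding sequence alone, 0.17 for the 4 rows that end under 50 bases past the stem-loop and 0.32 for the 5 that run further.

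Many H2A and H2B genes stand head to head and share the stretch between their starts. With starts at most 500 bases apart on opposite strands, 14 such pairs were found, 11 had a row for both genes, and 2 had both at 1 FPKM or more. H2B was above H2A in 8 of the 11. Hist1h2ag and Hist1h2bj, 270 bases apart, were both higher after knockdown in both pairs, with ratios of 0.21 and 0.34 for Hist1h2ag and 0.07 and 0.26 for Hist1h2bj. Hist1h2ae and Hist1h2bg, 176 bases apart, parted in pair 2, where the ratio was 0.47 for Hist1h2ae and -0.29 for Hist1h2bg. Hist1h2bc, the highest member, stands opposite Hist1h2ac, 251 bases away, at mean levels of 15.3 and 0.116 FPKM. The Hist1h2ac row, 2493 bases, passes the stem-loop by 2010 bases, while the rows of Hist1h2bc have 728 and 381 bases. The rows thus do not cover like stretches, and the part of this in the gap was not tested.

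No change was called among the tested factors that transcribe and process histone messages. The list held 18 genes, of which 15 had a named row and 13 were tested. Zfp473 was at 0 FPKM in every library and Pou2f1 had a mean of 0.0489 FPKM, so neither was tested. Of 13 tested genes of that list, 0 passed the adjusted test and 0 had an unadjusted p under 0.05 (limma), with a median ratio of -0.01. Slbp, the stem-loop binding protein, was at 44.8 FPKM in si-ctrl 1, 48.0 in si-Atad2 1, 46.1 in si-ctrl 2 and 45.3 in si-Atad2 2. Npat, the coactivator of histone gene transcription at S phase entry, was at 11.3, 12.2, 11.8 and 11.9 FPKM in the same order. The groups overlapped for Slbp. Both si-Atad2 levels of Npat lay above both controls, with ratios of 0.10 and 0.01 (adjusted p = 0.759, limma).

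Histone levels follow the share of cells in S phase, and in bulk RNA fewer cells in S phase and less histone RNA per cell cannot be told apart. Of 20 tested S phase genes, among them the replication clamp Pcna, the Mcm helicase subunits and the ribonucleotide reductase subunits, 0 passed (limma) and the median ratio was 0.02. At an unadjusted p under 0.05, Rrm2 and Pola1 were higher and Pcna was lower. Rrm2, a subunit of ribonucleotide reductase, was at 92.3 FPKM in si-ctrl 1, 119.6 in si-Atad2 1, 94.3 in si-ctrl 2 and 107 in si-Atad2 2. Both si-Atad2 levels were above both controls, with ratios of 0.37 and 0.17 (adjusted p = 0.0576, limma). Pcna was at 109 FPKM in si-ctrl 1, 80.6 in si-Atad2 1, 97.0 in si-ctrl 2 and 92.5 in si-Atad2 2. It was low in si-Atad2 1 in particular (adjusted p = 0.146, limma), the library in which the H1 and H2B sums were high, and its part in those sums was not tested.

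Replacement histones are made throughout the cell cycle. Of 10 tested, 2 were called higher and 0 lower (limma; 1, H2afy, was lower at an unadjusted p under 0.05), and their median ratio was 0.02. H1fx, the H1.10 linker histone, was at 33.4 FPKM in si-ctrl 1, 47.6 in si-Atad2 1, 31.1 in si-ctrl 2 and 37.2 in si-Atad2 2, and H1f0, the linker histone of slowly dividing and differentiated cells, was at 32.5, 57.5, 34.4 and 39.2 FPKM. Both si-Atad2 levels of each lay above both controls. The mean log2 ratio of H1fx was 0.37 ± 0.07 (moderated SE, 2 pairs, adjusted p = 0.0245, limma), with 0.50 in pair 1 and 0.25 in pair 2. That of H1f0 was 0.49 ± 0.11 (moderated SE, 2 pairs, adjusted p = 0.0472, limma), with 0.80 in pair 1 and 0.18 in pair 2. Neither call held without the replicate block, and over 10 other settings the adjusted p by limma ran from 0.0124 to 0.479 for H1fx and from 0.0214 to 0.507 for H1f0. The larger ratio lay in pair 1 for each of Hist1h1c, H1fx and H1f0.

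The remaining replacement genes named by rule did not pass. H3f3a was at 65.1 to 69.4 FPKM, H3f3b at 328 to 407 FPKM and H2afx at 171 to 206 FPKM. H3f3b was highest in si-Atad2 1 and lowest in si-Atad2 2, so its groups overlapped.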

How the data were processed

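RNA-seq of 4 libraries of 46C ES cells was analysed, 2 of them si-ctrl and 2 si-Atad2, grouped by the labels. The authors ran TopHat and Cuffdiff on each pair, per the labels, and deposited FPKM with 95% intervals for 59120 rows. Versions of these programs are not given in the sources used here. The labels name mm9, but the loci were read as GRCm38. Of the 70 member rows, 12 had the exact start and end of a GENCODE transcript in GRCm38. All 70 overlap their GRCm38 gene, but rows were named by that overlap, so this count cannot decide the build. The authors' deposited transcript lengths, in bases, served to name rows. The deposited tables of the authors' own comparisons (fold changes, p-values and q-values) were not used.

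Rows of 200 bases or more with status OK were named from GENCODE vM21 by length within 3 bases (5 for members) or as the only coding gene, and summed by gene. The tables hold no counts, so depth is known only from the intervals, which correspond to 4.49 to 532 fragments per tested member and library (median 26.3). Ratios with a pseudocount of 1 FPKM were tested with limma 3.58.1 in R 4.3.3 (eBayes with a trend, Benjamini-Hochberg, threshold 0.05, mean of at least 1 FPKM), after a test on simulated data. Tables were handled with Python 3.11.15 and pandas 2.3.3. The pairing comes from the Cuffdiff runs; same-numbered libraries deviated with a correlation of -0.042. With 2 against 2 libraries an exact permutation test cannot go below p = 0.333, so none is given.

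Genes named are members past the threshold, the 3 highest of each type, the 5 highest and 5 lowest ratios with the same sign in both pairs, divergent pairs, testis members and fixed genes of the other lists. Members, lists and tests were chosen with earlier results of these data known. Alternatives were other pseudocounts, TPM, median of ratios, other minimums, rows of all lengths, no replicate block, GC trend removed, eBayes without a trend and leaving out each replicate.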

Additional observations from a re-analysis of the deposited data

How the results depend on the processing

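The calls of cluster histone genes depended on the processing. The main count of 2 of 28 members (Hist3h2ba and Hist1h1c) became 4 of 46 after rescaling to TPM, with Hist1h4i and Hist1h2ab added. Calls over all genes went from 210 of 9834 to 281 of 11692 under TPM. The count of members was 1 (Hist3h2ba) by eBayes without a trend. It became 0 with no minimum level, with rows of all lengths and with the GC trend removed. All genes called went from 210 to 0, 13 and 15 in those 3 settings, so those losses were not limited to histones, and the cause was not tested. With no minimum Atad2, at -1.53, was not called either (adjusted p = 0.402, limma). At an unadjusted p under 0.05 (limma), 8 to 10 cluster histones and 1286 to 1711 genes passed in those 3 settings. The replacement histones went from 2 calls to 1 (H1fx) with median of ratios, and to 0 with no minimum, rows of all lengths, the GC trend removed and eBayes without a trend. The S phase list went from 0 calls to 1 (Rrm2, higher) with pseudocounts of 0.1 and 5 FPKM, TPM and a minimum of 5 FPKM.

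Without the replicate block 144 genes were called, all among the 210, with 0 cluster histones (8 at an unadjusted p under 0.05, limma) and 0 replacement histones (3). The numbers pair the libraries only through the Cuffdiff runs.

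The median ratio of the histone members, 0.09, was 0.32 over the 5 with at least 5 FPKM, and, in a split added after seeing the data, -0.12 for rows of coding sequence alone and 0.27 for rows past the stem-loop. Leaving out 1 replicate gave -0.021 to 0.13, the lower value being pair 2 alone. Every sum by type or cluster moved by less than the spread between pairs under each scaling, pseudocount and row length tried. The low counts of fragments per member limit all of these values.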
